A study of Mus musculus with 12 samples.

Results

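The Hox genes of the mouse lie in 4 clusters, Hoxa on chromosome 6, Hoxb on chromosome 11, Hoxc on chromosome 15 and Hoxd on chromosome 2. They were chosen by symbol, Hoxa to Hoxd followed by a number, and 38 of the 39 genes that match are described here: 10 Hoxa, 10 Hoxb, 9 Hoxc and 9 Hoxd genes among 21631 protein-coding genes. Each gene was taken as its GRCm38 span with 5 kb on each side, and the 4 clusters of such windows together made up 444843 bp.

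Hox genes encode homeodomain transcription factors that give cells of the body axis and limbs their regional identity. Within a cluster, the genes with low numbers are used anteriorly and the genes with high numbers posteriorly, and genes of the same number in different clusters are paralogues. Mesenchymal cells, those of fat depots included, keep much of the Hox pattern of the place they came from, and active Hox chromatin carries H3K27ac, an acetylated lysine of histone H3 found at active promoters and enhancers.

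H3K27ac was profiled by chromatin immunoprecipitation and sequencing (ChIP-seq) in adipocyte progenitors from mouse subcutaneous fat. The cells were Azin2-/-, lacking antizyme inhibitor 2, a regulator of polyamine synthesis, or wild-type (WT). Both groups had the same culture: 1 week in 4.5 g/l glucose medium with 10% serum, 2 days with 5 µg/ml insulin, 0.5 mM isobutylmethylxanthine (a phosphodiesterase inhibitor), 1 µM rosiglitazone and 1 µM dexamethasone, then 5 days with 5 µg/ml insulin alone. The cells had thus been through an adipogenic schedule before they were fixed. There were 3 libraries of each genotype, numbered 1, 2 and 8 in Azin2-/- and 1, 2 and 2b in wild-type. The construction of the allele and the strain, age and sex of the mice were details not given in the sources used here. The labels do not say whether libraries of a genotype came from separate mice, or how wild-type 2 and 2b are related, so p-values measure only the spread between these libraries.

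The deposited lists held 742335 to 1217494 peaks per library, and the 30000 of smallest p in each library were used. These covered 21.1 to 28.9 Mb in Azin2-/- and 16.9 to 28.0 Mb in wild-type. Read totals were not used here, and only the background implied by the authors' fold and p stands in for depth: it was lowest in wild-type replicate 1, at 0.164 fragments, and highest in Azin2-/- replicate 8, at 1.10. The weakest peaks kept held 2 fragments at the summit in wild-type replicate 1, 6 in Azin2-/- replicate 8 and 3 or 4 in the others. Peaks covered 1176, 870 and 1492 bp of the Azin2 window in Azin2-/- against 1434, 1150 and 2426 bp in wild-type (1179 ± 311 against 1670 ± 670 bp, SD, n = 3), which is no check of the deletion. Of 17 progenitor markers, 6 had cover in every library, among them Pdgfra and Zfp423, while Ly6a and Col3a1 had it in 1 library each. Of 10 adipocyte markers, Cebpa and Plin1 had cover in every library and Pparg in 5, while Adipoq and Retn had none in any library. Summed over the markers, cover ran from 16318 to 35500 bp in Azin2-/- and from 26269 to 44323 bp in wild-type for progenitors, and from 4838 to 6794 bp and from 3904 to 8689 bp for adipocytes. Endothelial markers had 2500 to 6471 bp in Azin2-/- and 780 to 5069 bp in wild-type. For the muscle markers it was 4239 to 6488 bp and 0 to 4506 bp, with Myog at 0 in every library. Leukocyte markers had 1392 to 2830 bp and 801 to 1531 bp, with Cd3e at 0 in every library, and epithelial markers 2150 to 4523 bp and 1438 to 3308 bp.

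Promoters of 22 of the Hox genes were held in the RefSeq sequence table (GRCm38), 24 in all. The 250 bases before the start had a median of 12.5 CpG dinucleotides and 58.6% GC in the Hox promoters, against 6 and 52.4% over all 32851 promoters of the table. A peak lay in this stretch in all 6 libraries at 2 of the 24, Hoxd9 and Hoxd1 (8.33%, against 8.96% of all promoters), and in no library at 8 (33.3%, against 61.4%). The 4 promoters shown are those with a peak in every library, 1 with a peak in none (Hoxd4), and that of Hoxa13, whose locus differed most between genotypes; CpG dinucleotides are in capitals. They lie at chr2:74697513-74697762 (plus strand), chr2:74762730-74762979 (plus strand), chr2:74721728-74721977 (plus strand) and chr6:52260881-52261130 (minus strand), each written 5′ to 3′ and ending at the base before the start.
Hoxd9: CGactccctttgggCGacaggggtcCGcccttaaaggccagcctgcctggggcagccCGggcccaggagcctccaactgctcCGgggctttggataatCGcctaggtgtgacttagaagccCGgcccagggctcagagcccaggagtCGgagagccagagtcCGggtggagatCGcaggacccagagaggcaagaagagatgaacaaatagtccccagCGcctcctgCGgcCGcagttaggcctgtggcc
Hoxd1: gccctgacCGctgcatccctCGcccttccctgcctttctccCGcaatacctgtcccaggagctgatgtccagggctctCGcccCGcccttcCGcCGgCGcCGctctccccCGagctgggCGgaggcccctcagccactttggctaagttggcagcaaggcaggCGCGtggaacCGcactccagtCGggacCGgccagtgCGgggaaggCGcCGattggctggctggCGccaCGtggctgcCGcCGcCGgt
Hoxd4: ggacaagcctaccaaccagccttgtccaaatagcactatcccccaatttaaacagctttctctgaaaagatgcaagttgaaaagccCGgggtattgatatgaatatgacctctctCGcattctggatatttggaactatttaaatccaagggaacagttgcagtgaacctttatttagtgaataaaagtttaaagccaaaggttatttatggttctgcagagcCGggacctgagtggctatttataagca
Hoxa13: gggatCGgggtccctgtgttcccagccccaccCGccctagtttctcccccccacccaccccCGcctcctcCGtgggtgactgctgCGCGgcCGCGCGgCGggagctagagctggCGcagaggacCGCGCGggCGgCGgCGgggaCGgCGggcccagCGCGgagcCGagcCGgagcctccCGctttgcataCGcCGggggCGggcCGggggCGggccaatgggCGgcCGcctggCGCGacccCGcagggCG

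The capitals show the contrast between them: 13 CpG in Hoxd9, 24 in Hoxd1, 3 in Hoxd4 and 35 in Hoxa13. The GC content was 65.2%, 71.6%, 40.4% and 80.0% in the same order. Hoxd4 is at the low end of the 8 promoters with a peak in no library, which had 3 to 14 CpG. Of these Hoxb4, with 14, had more than Hoxd9. The Hoxa13 promoter, with the most CpG of the 24, was covered only in Azin2-/- replicate 1. Covered bases out of 250 were 250, 250 and 183 in Azin2-/- and 250, 143 and 250 in wild-type at Hoxd9, and 250, 250 and 244 against 250, 218 and 250 at Hoxd1. The letters TGATTNAT, which Hox proteins recognise together with Pbx partners, were searched on both strands and occurred in 2 of the 24 promoters (8.33%), at Hoxa2 and at the second start of Hoxd11. Of all promoters 2.82% held them.

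Acetylated peaks ran along all 4 clusters, and were denser there than over genes at large. The Hox windows were covered over 19.2%, 8.55% and 6.42% of their length in Azin2-/- replicates 1, 2 and 8, and over 11.1%, 6.59% and 14.5% in wild-type replicates 1, 2 and 2b. Windows of all protein-coding genes were covered over 0.998 to 1.90%, so that Hox windows were covered 5.00 to 11.1 times as densely, lowest in wild-type replicate 2 and highest in wild-type replicate 1. Hox windows are short and close to each other, and windows at large include long introns, which this ratio does not take into account. High and low libraries occurred in both genotypes: Azin2-/- replicate 1 and wild-type replicates 1 and 2b lay at 8.83 times or more, and Azin2-/- replicates 2 and 8 and wild-type replicate 2 at 6.23 times or less. A peak list cannot tell fewer cells carrying the mark from less of it per cell.

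**Figure D1:**
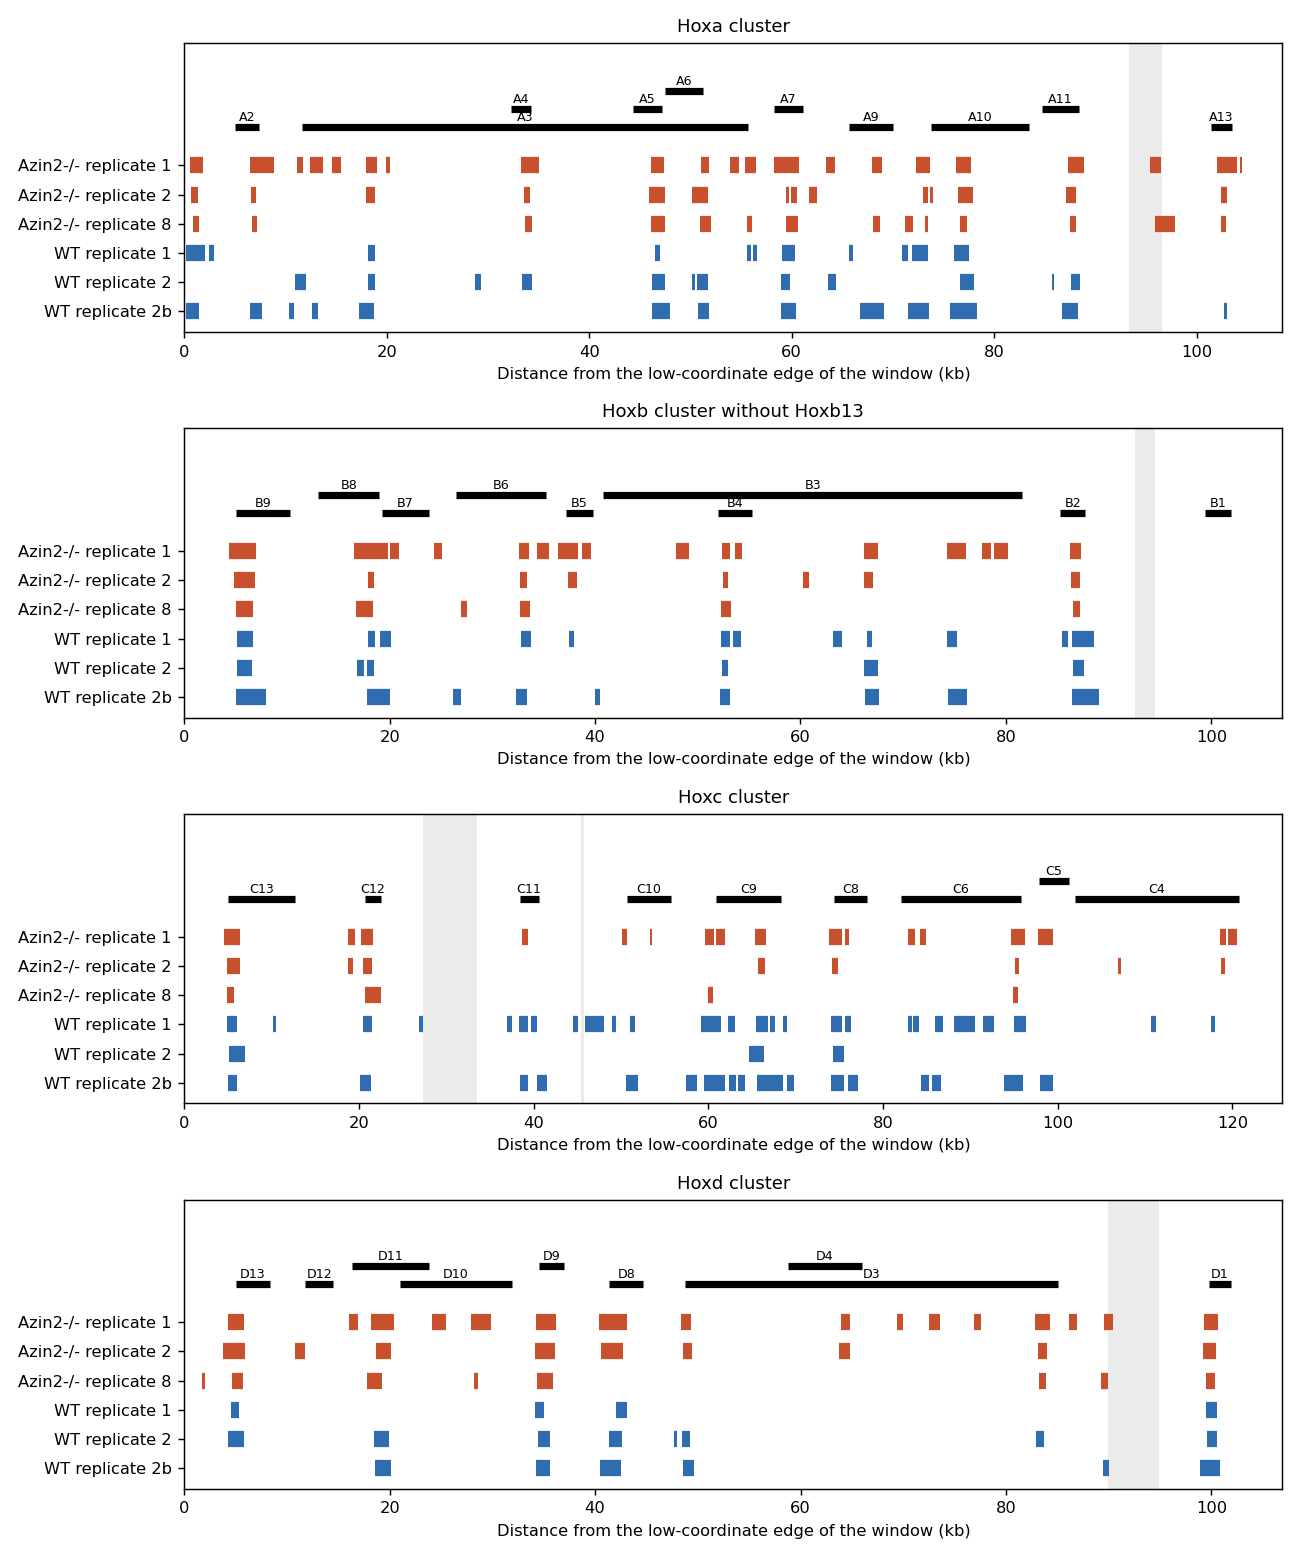
Positions of the 30000 strongest H3K27ac peaks of each library along the Hoxa, Hoxb, Hoxc and Hoxd windows, in kb from the low-coordinate edge; black bars are gene spans labelled by cluster letter and number, coloured bars are peaks of 1 library each (red Azin2-/-, blue wild-type), and grey stretches lie outside the windows; Hoxb13, apart from the rest of its cluster, is not drawn. Peaks recur at the same places in most libraries, for example at B9, B4, B2, D9 and D1, while those over C9 to C11 are densest in wild-type replicates 1 and 2b.

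Because neighbouring Hox windows overlap and share peaks, each base was also assigned to 1 gene, the one whose span holds it (the shortest span where several do) or else the nearest. By this measure 12 of the 38 genes had cover in all 6 libraries, 13 in 5, 3 in 4, 4 in 3, 3 in 2, 2 in 1 and 1 in none. The gene with none was Hoxb1, a hindbrain gene, and the 2 with 1 library were Hoxb13, with 501 bp in Azin2-/- replicate 2, and Hoxd12, with 945 bp in the same library. Genes without assigned cover numbered 3, 7 and 13 in Azin2-/- replicates 1, 2 and 8 and 12, 16 and 8 in wild-type replicates 1, 2 and 2b. In what follows 6 values for a gene or cluster are in the order Azin2-/- replicates 1, 2 and 8, then wild-type replicates 1, 2 and 2b. Values are unscaled bp, and whether genotypes overlap was judged after scaling each library to equal total cover.

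**Figure D2:**
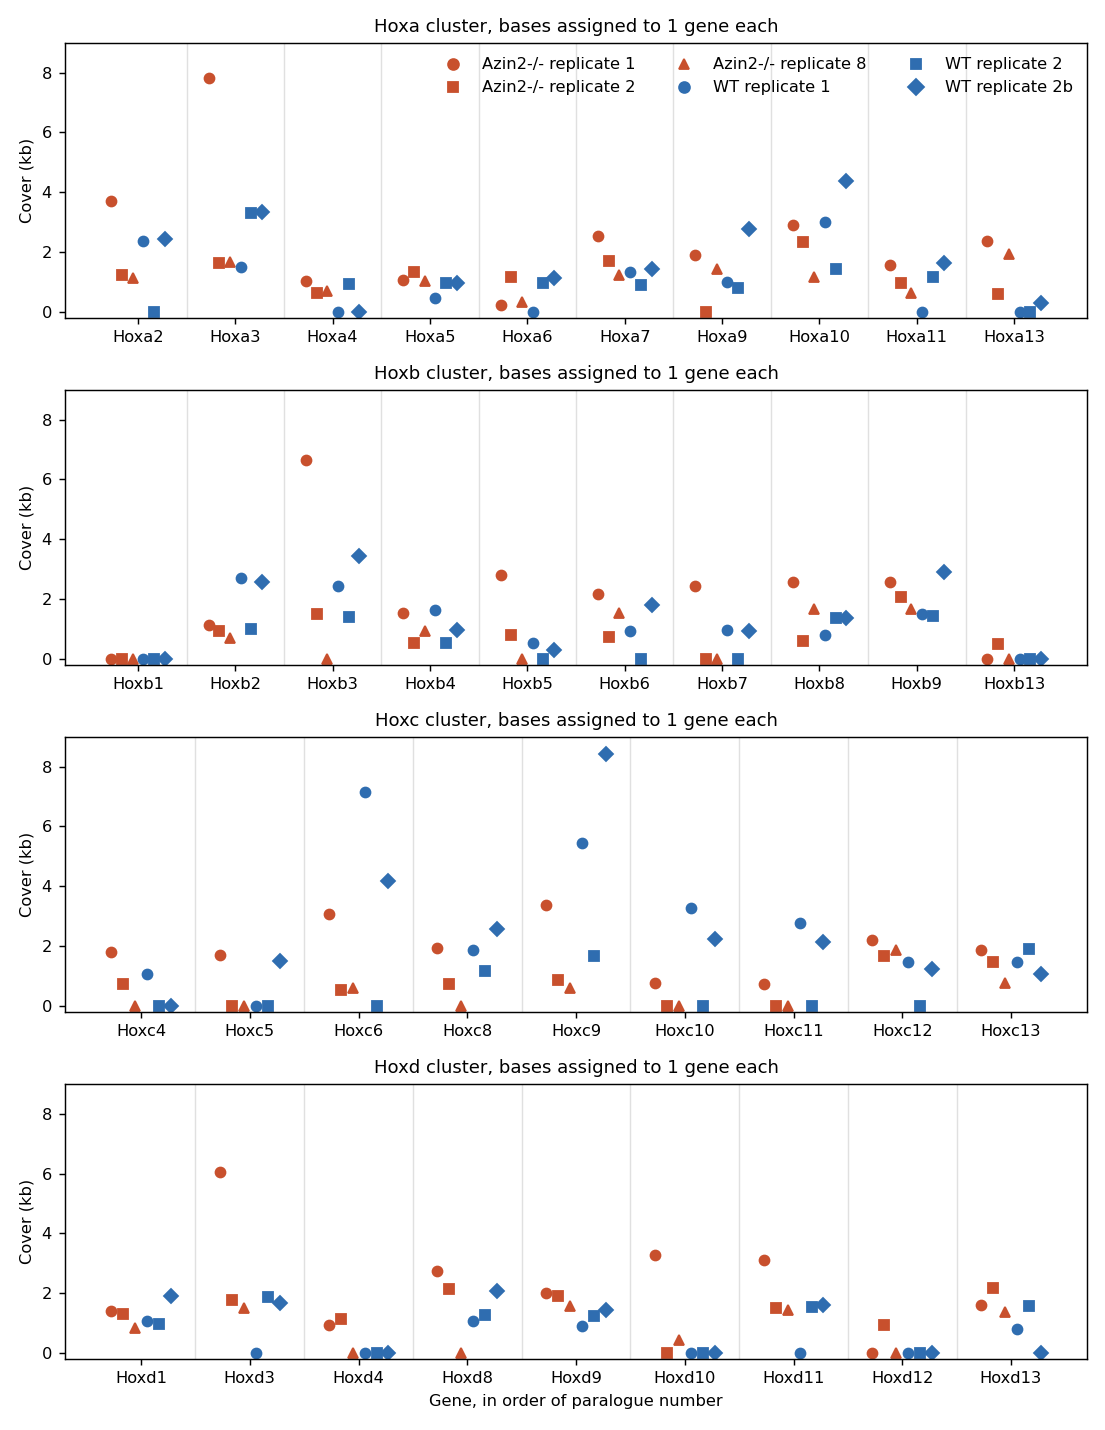
Length in kb covered by the 30000 strongest peaks and assigned to each of the 38 Hox genes, 1 point per library (red Azin2-/-, blue wild-type; shapes tell the replicates). Hoxc9 reaches 8425 bp in wild-type replicate 2b, Hoxa3 reaches 7813 bp in Azin2-/- replicate 1, and Hoxb1 is at 0 in every library.

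In the Hoxa cluster, 4 of the 10 genes had assigned cover in every library: Hoxa3, Hoxa5, Hoxa7 and Hoxa10. Hoxa10, a posterior gene needed in the uterus and limb, had the highest median of them, with 2897, 2328 and 1146 bp in Azin2-/- against 3002, 1424 and 4354 bp in wild-type. Its genotypes overlapped, with wild-type replicate 2b highest and Azin2-/- replicate 8 lowest. Hoxa3, which patterns the pharyngeal arches and whose RefSeq span runs across Hoxa4 to Hoxa6, had 7813, 1640 and 1666 bp against 1505, 3308 and 3347 bp. Azin2-/- replicate 1 stood far above the other libraries there, and the others overlapped. Hoxa7, a thoracic gene, had 2517, 1696 and 1218 bp against 1335, 895 and 1427 bp. Hoxa5, which acts in the neck, thorax and lung, had 1046, 1317 and 1027 bp against 453, 946 and 965 bp. Each Azin2-/- library exceeded each wild-type library at Hoxa5 before scaling to equal total cover, but not after it. The other 6 genes (Hoxa2, Hoxa4, Hoxa6, Hoxa9, Hoxa11 and Hoxa13) lacked assigned cover in 1 or 2 libraries each, wild-type replicate 1 being at 0 for Hoxa4, Hoxa6, Hoxa11 and Hoxa13.

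Hoxa13, which lies at the posterior end of the cluster and shapes the digits and the genital and urinary tracts, had the largest positive difference between genotypes among the 35 Hox genes tested. It had 2364, 588 and 1921 bp in Azin2-/- against 0, 0 and 284 bp in wild-type. Azin2-/- was higher in 3 of 3 libraries and the genotypes did not overlap. The log2 difference, of cover scaled to equal totals with 500 bp added, was 1.74 (SE 0.59; limma, unadjusted p = 0.0137, Benjamini-Hochberg adjusted p = 0.743 over 11670 genes). This did not pass the adjusted threshold of 0.05. The peak at the gene itself, chr6:52259367-52261410, covered 2044, 588 and 476 bp against 0, 0 and 284 bp. The peaks at the gene are shallow: the strongest deposited there held 12, 6 and 9 fragments in Azin2-/- and 3 and 4 in wild-type replicates 2 and 2b, and wild-type replicate 1 had none. The wild-type replicate 2 peak ranked 123820 in its list and so was not among those kept. The rest of the Azin2-/- replicate 8 cover lay in a separate region between Hoxa13 and Hoxa11, chr6:52252848-52255297, which reaches beyond the window and held 1074, 0 and 2036 bp against 218, 0 and 0 bp. Hoxa6, a thoracic gene, was the other Hoxa gene whose genotypes did not overlap, with 3764, 3205 and 2923 bp against 951, 2677 and 2898 bp in its window (log2 difference 0.50, SE 0.34, limma unadjusted p = 0.172). Its window shares peaks with Hoxa5, and over the gene span alone the sign turned (−0.04). Without wild-type replicate 1 the difference was 0.24.

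Over the whole Hoxa window of 105422 bp, peaks covered 25031, 11557 and 11164 bp in Azin2-/- against 9649, 10381 and 18351 bp in wild-type. The genotypes overlapped, with Azin2-/- replicate 1 and wild-type replicate 2b standing above the rest (log2 difference 0.13, two-sided exact permutation p = 0.8, adjusted over the 4 clusters p = 1). The strongest Hoxa peak was the one in Hoxa10 in Azin2-/- replicate 1 and wild-type replicates 1 and 2b, that at Hoxa5 in wild-type replicate 2, and one at the start of Hoxa6, inside the Hoxa3 span, in Azin2-/- replicate 8. In Azin2-/- replicate 2 these 3 peaks were equal in the authors' p and fold.

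In the Hoxb cluster 4 of 10 genes had assigned cover in all 6 libraries: Hoxb2, Hoxb4, Hoxb8 and Hoxb9. Hoxb9, a thoracic gene, was covered over 2567, 2077 and 1647 bp in Azin2-/- against 1509, 1441 and 2900 bp in wild-type. Hoxb8, which also marks a lineage of microglia, had 2563, 603 and 1653 bp against 800, 1354 and 1346 bp. For both genes the genotypes overlapped. Hoxb4, known from blood stem cells, had 1527, 516 and 942 bp against 1632, 537 and 965 bp, with overlap. After scaling the values were 1228, 529 and 1036 bp against 2251, 569 and 802 bp, again with overlap. Its peak, chr11:96318501-96319545, began after the start of the gene, and the 250 bases before the start were uncovered in every library. It was the strongest Hoxb peak in Azin2-/- replicate 1 (24 fragments at the summit) and in wild-type replicates 1 and 2 (10 and 16 fragments).

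Hoxb2, a hindbrain gene that acts in facial motor neurons, was the only Hox gene whose window was lower in each Azin2-/- library than in each wild-type library. Its cover was 1117, 918 and 707 bp in Azin2-/- against 2701, 1008 and 2551 bp in wild-type. Unscaled, Azin2-/- replicate 1 lay above wild-type replicate 2. Scaled to equal total cover the values were 898, 942 and 778 bp against 3725, 1068 and 2119 bp, with no overlap and with wild-type replicate 2 close to Azin2-/-. The log2 difference was −0.92 (SE 0.43; limma, unadjusted p = 0.0552, adjusted p = 0.771). Without wild-type replicate 1 it was −0.56, and with all deposited peaks −0.30. At the central genes Hoxb5, Hoxb6 and Hoxb7 assigned cover was absent from 1 to 3 libraries each, and largest in Azin2-/- replicate 1, with 2793, 2148 and 2421 bp. The Hoxb window of 117495 bp had 21799, 7629 and 6491 bp of cover against 11457, 5722 and 14231 bp. Azin2-/- replicate 1 was highest, wild-type replicate 2 lowest, and the log2 difference was −0.07 (two-sided exact permutation p = 1, adjusted p = 1).

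Hoxc showed the widest spread between wild-type libraries of the 4 clusters. Its window of 119716 bp was covered over 17434, 5995 and 3800 bp in Azin2-/- against 24508, 4738 and 23363 bp in wild-type. Wild-type replicates 1 and 2b were highest, but wild-type replicate 2 lay between the 2 lowest Azin2-/- libraries, so that the genotypes overlapped. The log2 difference was −1.02 (two-sided exact permutation p = 0.3, adjusted p = 0.6). Leaving out wild-type replicate 2 gave −1.77, leaving out replicate 1 gave −0.45, and leaving out Azin2-/- replicate 8 gave −0.66. As a share of all Hox cover, Hoxc held 20.4%, 15.8% and 13.3% in Azin2-/- and 49.6%, 16.2% and 36.1% in wild-type. Summed cover of the progenitor markers was likewise high in wild-type replicates 1 and 2b and Azin2-/- replicate 1 (44323, 35768 and 35500 bp) and lower in the other 3 (16318 to 26269 bp), and its part in the result was not tested.

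**Figure D3:**
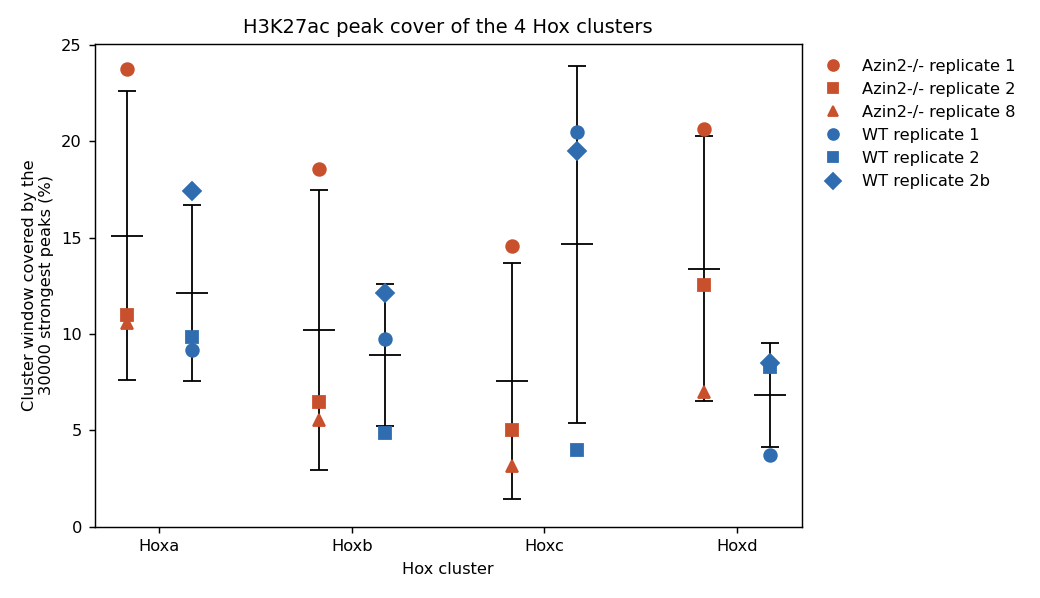
Percent of each Hox cluster window covered by the 30000 strongest peaks, 1 point per library (red Azin2-/-, blue wild-type), with mean and SD of 3 libraries per genotype in black. In Hoxc wild-type replicates 1 and 2b lie at 20.5% and 19.5% and replicate 2 at 3.96%, and in every cluster the 2 genotypes overlap.

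Hoxc9, a thoracic patterning gene and one of the Hox genes associated with subcutaneous fat, had the largest negative difference among the Hox genes. Its window held 3368, 878 and 584 bp in Azin2-/- against 5448, 1664 and 9262 bp in wild-type. Azin2-/- replicate 1 exceeded wild-type replicate 2, and the other Azin2-/- libraries lay below all of wild-type. The log2 difference was −1.62 (SE 0.55; limma, unadjusted p = 0.014, adjusted p = 0.743), which did not pass. Among peaks with a deposited q of 0.01 or less it was −2.15 with a limma adjusted p of 0.0219. Over the other settings that were tried the adjusted p of Hoxc9 ran up to 0.999.

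The main Hoxc9 region, chr15:102980794-102985087, joined peaks from inside the gene to just past its high-coordinate end. In the 5 libraries with a kept peak there, the strongest had its summit inside the gene, at 102981989 to 102982076. Cover of the region was 1235, 878 and 0 bp in Azin2-/- against 2455, 1664 and 3046 bp in wild-type. Each wild-type library was above each Azin2-/- library. The log2 difference was −2.06 (SE 0.61; limma, unadjusted p = 0.0043, adjusted p = 0.603 over 22205 regions). Without Azin2-/- replicate 8, the library at 0, it was −1.23 (adjusted p = 0.137), and with no minimum on region cover it was −2.06 with a limma adjusted p of 0.0402, where the other settings gave up to 0.695. The noncoding gene Gm36878 overlaps this region, and unstranded peaks cannot tell these apart. Summits held 16, 17 and 36 fragments in wild-type, with ranks of 148, 383 and 744 within their lists, and 20 and 10 fragments at ranks 2376 and 2203 in Azin2-/- replicates 1 and 2. Azin2-/- replicate 8 had a deposited peak there too, with 12 fragments, but at rank 75786 it fell outside the 30000. Its high background, 1.10 fragments, moved with this, and the part of it in the difference was not tested.

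Next to it, Hoxc8, a gene of the thoracic to lumbar transition, had 2235, 739 and 0 bp in its window against 2167, 1175 and 3018 bp (log2 difference −1.22, SE 0.56, limma unadjusted p = 0.0527, adjusted p = 0.771). Its main peak, chr15:102989991-102991652, covered 1460, 739 and 0 bp against 1214, 1175 and 1463 bp. After scaling each wild-type library lay above each Azin2-/- library, the closest being 1215 against 1174 bp. Hoxc6, Hoxc10 and Hoxc11 had most of their assigned cover in wild-type replicates 1 and 2b. It was 3076, 513 and 586 bp against 7157, 0 and 4183 bp at Hoxc6, 756, 0 and 0 bp against 3278, 0 and 2217 bp at Hoxc10, a second gene associated with subcutaneous fat, and 743, 0 and 0 bp against 2768, 0 and 2149 bp at Hoxc11. Wild-type replicate 2 was at 0 in all 3 genes, as were Azin2-/- replicates 2 and 8 at the latter pair. The strongest Hoxc peak of Azin2-/- replicate 1 lay beside Hoxc10, at rank 48 with 44 fragments, but was 531 bp wide with its summit near its edge, and no other library had it as its strongest.

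At the posterior end of Hoxc the genotypes overlapped. Hoxc13, a gene of hair and nails, had cover in every library, 1874, 1472 and 776 bp against 1457, 1899 and 1077 bp, with overlapping genotypes. Hoxc12 had 2193, 1654 and 1854 bp in Azin2-/- against 1462, 0 and 1237 bp in wild-type (log2 difference 0.91, SE 0.56, limma unadjusted p = 0.132). The genotypes did not overlap before scaling but did after it. Hoxc4 and Hoxc5 were covered in 3 and 2 libraries.

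Hoxd had more cover in Azin2-/- on average. Its window of 102210 bp was covered over 21100, 12838 and 7122 bp in Azin2-/- against 3831, 8455 and 8690 bp in wild-type. Azin2-/- replicates 1 and 2 were above every wild-type library, and Azin2-/- replicate 8 lay among them. The log2 difference was 0.75 (two-sided exact permutation p = 0.2, adjusted p = 0.6), and 0.18 with all deposited peaks. The Hoxd share of all Hox cover was 24.7%, 33.8% and 24.9% in Azin2-/- and 7.75%, 28.9% and 13.4% in wild-type. Wild-type replicate 1 was the lowest: its strongest Hoxd peak, at Hoxd1, held 3 fragments, where the strongest of the other libraries held 8 to 18. The same library had the lowest implied background (0.164 fragments) and no cover at the muscle markers, and the part of neither in the result was tested.

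Hoxd9, which acts in the forelimb and thorax, and Hoxd1, at the anterior end, were the Hoxd genes with cover in all 6 libraries. At Hoxd9 the assigned cover was 1989, 1906 and 1572 bp in Azin2-/- against 882, 1246 and 1425 bp in wild-type. Each Azin2-/- library was above each wild-type library, before and after scaling. The same peak tested as a region, chr2:74697371-74699463, gave a log2 difference of 0.44 (SE 0.28; limma, unadjusted p = 0.137, adjusted p = 0.603). In the whole Hoxd9 window the genotypes overlapped, with 3984, 3273 and 1572 bp against 882, 1873 and 2963 bp (0.44, SE 0.37, limma unadjusted p = 0.255, adjusted p = 0.833). At Hoxd1 the values were 1398, 1297 and 838 bp against 1066, 978 and 1898 bp, with overlap.

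The windows of Hoxd10, Hoxd11 and Hoxd12, posterior genes of the limb, overlap each other and did not overlap between genotypes. Hoxd10, which also acts in lumbar motor neurons, had 8369, 3391 and 3432 bp in Azin2-/- against 882, 2788 and 3032 bp in wild-type (log2 difference 0.93, SE 0.39, limma unadjusted p = 0.0368, adjusted p = 0.758). Hoxd11, which builds the forearm with its Hoxa paralogue, had 5277, 1918 and 1860 bp against 0, 1542 and 1607 bp (1.31, SE 0.56, limma unadjusted p = 0.0392, adjusted p = 0.758). Hoxd12 had 2127, 1772 and 1444 bp against 1041 and 915 bp in wild-type replicates 2 and 2b and 0 in wild-type replicate 1 (1.13, SE 0.50, limma unadjusted p = 0.0462, adjusted p = 0.762). The closest libraries of the Hoxd11 window were Azin2-/- replicate 2 and wild-type replicate 2, at 1968 and 1634 bp after scaling. Without wild-type replicate 1 the difference was 0.62 at Hoxd10, 0.65 at Hoxd11 and 0.63 at Hoxd12, and at a deposited q of 0.01 or less it was 0.20, 0.16 and −0.04. The windows share the region chr2:74681049-74683677 at Hoxd11, which held 2257, 1485 and 1444 bp against 0, 1542 and 1607 bp, with overlap. The Hoxd12 window takes in only part of it, and the Hoxd10 window also takes in the Hoxd9 peak. The span of Hoxd12 itself had no cover in any library, and its assigned cover was 945 bp in Azin2-/- replicate 2 alone. Assigned cover of Hoxd10 was 3281, 0 and 416 bp in Azin2-/- and 0 in each wild-type library. By assigned cover the genotypes overlapped in each of these genes. Hoxd3, a gene of the upper neck vertebrae, had 6990, 2890 and 1501 bp against 0, 1859 and 1676 bp, with overlap (1.43, SE 0.60, limma unadjusted p = 0.0374, adjusted p = 0.758). Its difference was 0.72 without wild-type replicate 1 and 0.03 with all deposited peaks. Hoxd4, inside the Hoxd3 span, had assigned cover in Azin2-/- replicates 1 and 2 alone, 947 and 1123 bp, and fell under the minimum for testing.

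Over all members, 35 of 38 genes passed the minimum mean of 500 bp in their window and were tested, Hoxb1, Hoxb13 and Hoxd4 being the 3 that did not. By limma with Benjamini-Hochberg adjustment 0 of the 35 passed 0.05, as did 0 of 11670 genes (0%). At an unadjusted p under 0.05 there were 6 of 35 (Hoxa13, Hoxc9, Hoxd3, Hoxd10, Hoxd11 and Hoxd12), against 755 of all genes (6.47%). These 6 are not independent, as the last 3 share peaks. Windows did not overlap between genotypes in 5 genes that were higher in Azin2-/- (against 6.72% of all genes) and 1 that was lower (against 4.93%). Of these genes only Hoxa13 and Hoxb2 also did not overlap by assigned cover. The estimates were above 0 in 19 Hox genes and below 0 in 16, with a median log2 difference of 0.09, against 6370 and 5300 and a median of 0.07 over all genes. By cluster the medians were 0.32 in Hoxa (7 above 0, 3 below), −0.03 in Hoxb (4 and 4), −0.80 in Hoxc (2 and 7) and 0.95 in Hoxd (6 and 2).

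**Figure D4:**
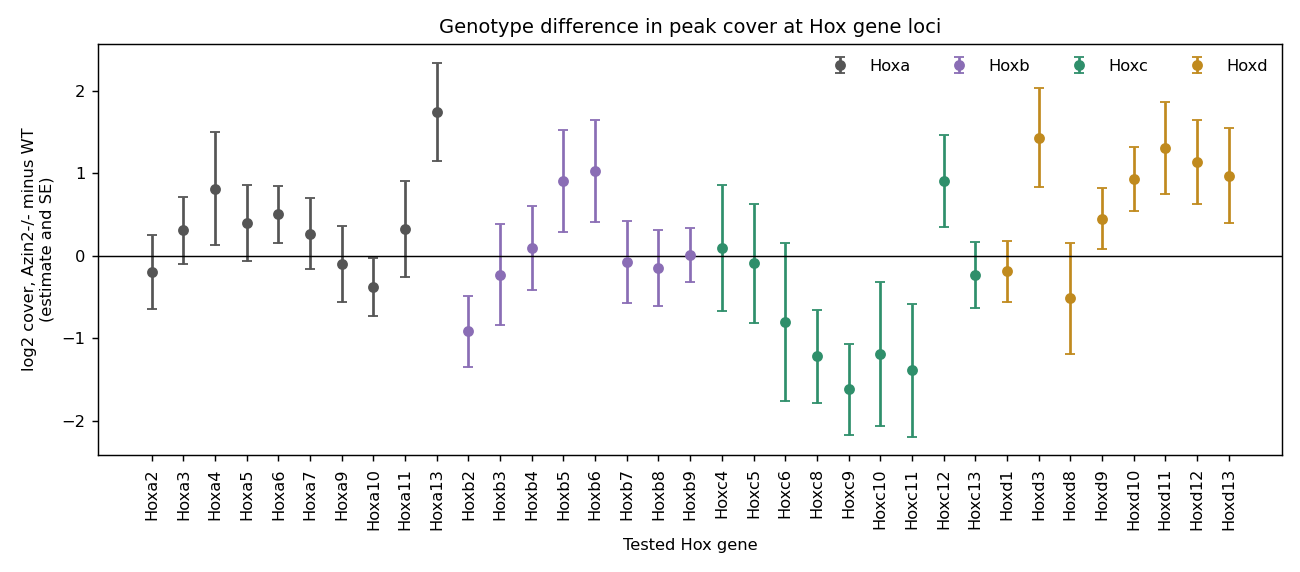
Estimated log2 difference in scaled cover, Azin2-/- minus wild-type, with its limma SE, for the 35 tested Hox genes in cluster and paralogue order. Hoxa13 has the highest estimate at 1.74 and Hoxc9 the lowest at −1.62, the run from Hoxc6 to Hoxc11 lies below 0 and that from Hoxd9 to Hoxd13 above 0, and no adjusted p was under 0.05.

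Taken once per stretch of chromatin, the Hox windows held 101 merged regions of the 128486 in the genome. All 6 libraries held 10 of them (9.90%), against 3.23% of all regions, and a single library held 48 (47.5%), against 85.8%. The 10 lay at Hoxa5, Hoxa7, Hoxa10, Hoxb9, Hoxb8, Hoxb4, Hoxb2, Hoxc13, Hoxd9 and Hoxd1. With at least 50% of a region's length required in a library, 0 of the 101 Hox regions and 916 of the 128486 regions were held by all 6. None of the 101 Hox regions was held by the 3 libraries of 1 genotype and by none of the other. Of the 128486 regions, 530 were so held for Azin2-/- and 33 for wild-type. Such small shares of all regions leave 0 among 101 Hox regions uninformative. Of 55 Hox regions tested with limma, 0 passed the adjusted threshold (0 of 22205 over all regions, 0%), and 3 had an unadjusted p under 0.05, at Hoxc9, Hoxb2 and Hoxa13, a share near the 5.51% of all regions. Genotypes did not overlap in 2 that were higher in Azin2-/- (5.22% of all regions) and 3 that were lower (2.62%), at Hoxa13 and Hoxd9 and at Hoxb2, Hoxc9 and Hoxc8. The Hoxb2 region, chr11:96352528-96355352, covered 1117, 918 and 707 bp against 2074, 1008 and 2551 bp (log2 difference −0.96, SE 0.39, limma unadjusted p = 0.026, adjusted p = 0.603), and the noncoding Hoxb3os overlaps it.

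By paralogue position, cover was not spread evenly. Over the 6 libraries the median share of territory covered was lowest at position 1, at 4.79%, and at position 3, at 5.00%. Position 1 holds only 2 genes: Hoxd1, covered in all 6 libraries, and Hoxb1, at 0 in every library with 12509 of the 24672 bp. Both have territories with the full 5 kb on each side, so the low rank of position 1 depends on Hoxb1 and on these flanks. Position 3 has the largest territory, 114650 bp for 3 genes, because the RefSeq spans of Hoxa3, Hoxb3 and Hoxd3 are long. A low share there is therefore not a short length covered. The median share was highest at position 2 (18.5%), and 15.8% or more at positions 7, 8 and 9 too. Part of the position 2 cover lay outside any Hox span, in chr6:52157603-52159477, assigned to Hoxa2 as the nearest gene described. This region, over the noncoding Hotairm1 and Hotairm2, held 1288, 684 and 623 bp in Azin2-/- against 1872, 0 and 1240 bp in wild-type. The rank of position 2 thus depends on that assignment. Each position spans a wide range. At position 5 the share covered lay between 8.07% for wild-type replicate 2 and 47.2% for Azin2-/- replicate 1. At position 9 it lay between 12.4% for Azin2-/- replicate 2 and 39.7% for wild-type replicate 2b. The order of neighbouring positions is therefore within the spread of the libraries.

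**Figure D5:**
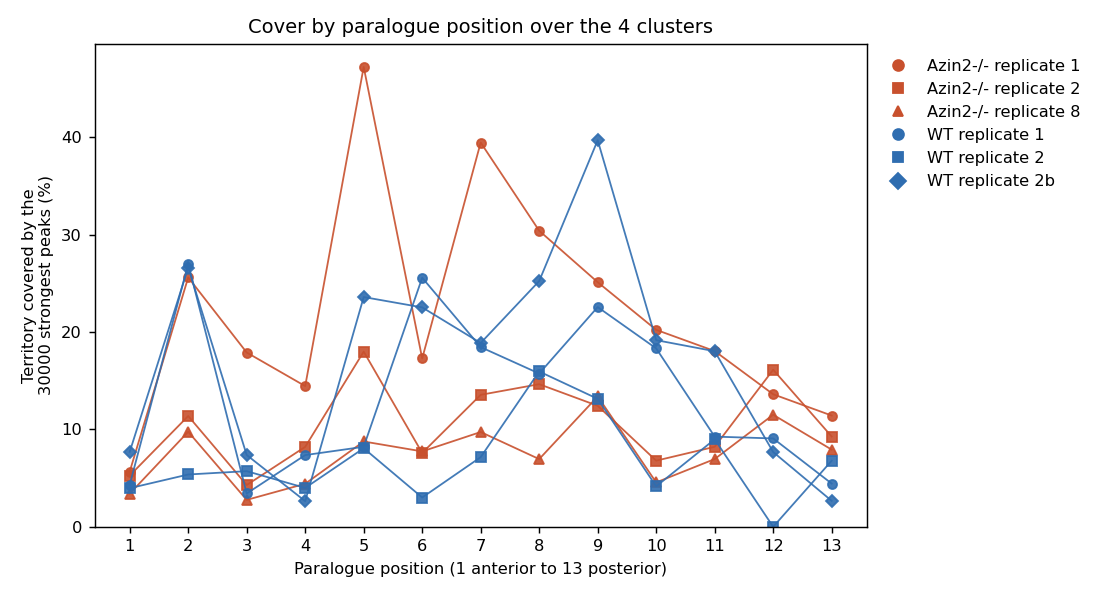
Percent of the bases assigned to each paralogue position, over the 4 clusters, that the 30000 strongest peaks cover, 1 line per library (red Azin2-/-, blue wild-type). Position 1 is low in every library, at 3.40 to 7.69%, and Azin2-/- replicate 1 peaks at position 5 with 47.2%, while wild-type replicate 2b peaks at position 9 with 39.7%.

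Grouped into anterior (1 to 3), central (4 to 8) and posterior (9 to 13) positions, the shares of Hox cover differed between genotypes by less than the spread of the libraries. Anterior genes, with 35.5% of the territory, took 31.3%, 22.0% and 20.4% of Hox cover in Azin2-/- and 20.3%, 29.1% and 23.7% in wild-type. Central genes, with 26.1% of the territory, took 33.3%, 33.4% and 27.9% against 36.0%, 27.5% and 29.7%. Posterior genes, with 38.3%, took 35.4%, 44.7% and 51.7% against 43.7%, 43.4% and 46.5%. Group means were 24.6 ± 5.89% and 24.4 ± 4.44%, 31.5 ± 3.17% and 31.0 ± 4.41%, and 43.9 ± 8.20% and 44.5 ± 1.74% (SD, n = 3 each; two-sided exact permutation p = 0.9 and adjusted p = 0.9 in all 3). With 3 against 3 libraries the smallest p that this test can give is 0.1, so it could not pass 0.05.

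The clusters also hold microRNA genes, whose products target Hox transcripts among others. The mature 5p strands of the miR-10 and miR-196 genes, from RefSeq, are shown because each of these 2 families has copies in more than 1 cluster, and the seed, bases 2 to 8, is in capitals.
mmu-miR-10a-5p: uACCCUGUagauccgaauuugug
mmu-miR-10b-5p: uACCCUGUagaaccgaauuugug
mmu-miR-196a-5p: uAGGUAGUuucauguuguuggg
mmu-miR-196b-5p: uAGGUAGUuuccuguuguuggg

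The miR-10 strands share the seed ACCCUGU and the miR-196 strands share AGGUAGU. Within 1 kb of the hairpins, peaks covered 1441, 617 and 656 bp in Azin2-/- against 1552, 0 and 1862 bp in wild-type at Mir196b, between Hoxa9 and Hoxa10. Wild-type replicate 2 alone lacked cover there, and the genotypes overlapped. At Mir10b, in the Hoxd4 span, Azin2-/- replicate 2 alone had cover, 213 bp, and at Mir196a-2, in Hoxc, wild-type replicate 2b alone had 806 bp. Mir10a and Mir196a-1, both in Hoxb, had none in any library. Mir615, in the Hoxc5 span, had 1697 bp in Azin2-/- replicate 1 and 1505 bp in wild-type replicate 2b.

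Genes that act with or on the Hox genes were taken as lists. The 9 cofactors are homeodomain partners of Hox proteins, of the Pbx, Meis and Pknox families. All 9 were tested, 5 above and 4 below 0, with a median log2 difference of 0.02 (0.07 over all genes) and 2 at an unadjusted p under 0.05 (6.47% of all genes). Both were Meis genes. Meis1 had 2064, 873 and 995 bp in Azin2-/- against 2139, 2429 and 2359 bp in wild-type (log2 difference −0.81, SE 0.35, limma unadjusted p = 0.0411, adjusted p = 0.758). Meis2 had 2856, 1681 and 1885 bp against 3578, 3168 and 8022 bp (−1.08, SE 0.34, limma unadjusted p = 0.0095, adjusted p = 0.743). In either gene all Azin2-/- libraries lay below all wild-type libraries, as they did in 4.93% of all genes.

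Of 24 chromatin regulators of Hox clusters, members of the Polycomb and Trithorax groups and demethylases, 23 were tested. They were above 0 in 12 and below 0 in 11, with a median of 0.07, and 1 had an unadjusted p under 0.05 (6.47% of all genes): Cbx8, a reader of Polycomb chromatin, with 4813, 2754 and 3005 bp against 543, 1213 and 3642 bp, with overlap (0.94, SE 0.41, limma unadjusted p = 0.0436, adjusted p = 0.762). Genes of retinoic acid and Cdx input, which set Hox expression along the axis, were tested in 14 of 16, 12 above and 2 below 0 with a median of 0.33, against 6370 and 5300 and a median of 0.07 over all genes. Of those tested, Cyp26a1, Cyp26b1, Crabp1, Aldh1a2, Cdx2 and Gdf11 had no cover in wild-type replicate 1, the library of lowest implied background. The part of that library in the median of this list was not tested. The 3 at an unadjusted p under 0.05 (6.47% of all genes) were Cyp26a1, Cyp26b1 and Crabp1, which degrade or bind retinoic acid. Cyp26a1 had 3281, 2471 and 2562 bp in Azin2-/- against 0, 687 and 1196 bp in wild-type and did not overlap (1.70, SE 0.46, limma unadjusted p = 0.0038, adjusted p = 0.743). Crabp1 had 2088, 1039 and 843 bp in Azin2-/- and 0 in the 3 wild-type libraries (limma unadjusted p = 0.0148, adjusted p = 0.743). Cyp26b1 had 5072, 3611 and 1035 bp against 0, 1801 and 1122 bp, with overlap. Aldh1a2 was the third gene of the list that did not overlap and was higher in Azin2-/- (6.72% of all genes). It had 1626, 2178 and 1216 bp against 0, 802 and 1031 bp (1.10, SE 0.52, limma unadjusted p = 0.0558, adjusted p = 0.771).

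Of 12 genes that flank the clusters, 9 were tested, 7 above and 2 below 0, with a median of 0.56 (0.07 over all genes) and 2 at an unadjusted p under 0.05 (6.47% of all genes). These were Evx1, a homeobox gene beyond Hoxa13, with 2032, 2313 and 1573 bp against 392, 865 and 826 bp (0.99, SE 0.38, limma unadjusted p = 0.0251, adjusted p = 0.743), and Lnpk, beside Hoxd, with 1062, 923 and 2274 bp against 0, 0 and 972 bp (1.39, SE 0.61, limma unadjusted p = 0.0454, adjusted p = 0.762). Evx1 and, after scaling, Lnpk did not overlap between genotypes. Hibadh, on the same side as Evx1, did not overlap either, with 1016, 1506 and 676 bp against 379, 479 and 631 bp (0.56, SE 0.48, limma unadjusted p = 0.269). Of all genes 6.72% did not overlap and were higher in Azin2-/-.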

How the data were processed

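The files are 1 peak list per H3K27ac library (3 Azin2-/-, 3 wild-type) on mouse build GRCm38 (mm10), per the submitters' processing notes. Details of alignment, peak calling, filters and controls were not given in the sources used here. The 6 input libraries were not analysed here. Each deposited list gives every peak's position, an integer score, a fold ratio over background, a −log10 p-value and a −log10 q-value. The score, the ratio, the p-value and the q-value come from the authors and served only to rank, filter and describe peaks within a list. The deposited positions and summit offsets are in bp. A pileup computed from fold and p was a whole number in 99.99% or more of the kept peaks of each library, within 0.001 on the log10 scale and with a pseudocount of 1, against 0.9 to 1.93% when p was shifted. That pileup is what "fragments" means.

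The members and lists were chosen with earlier results of these data known, and 1 Hox gene is not reported here. Peaks on the autosomes and X were ranked by p, ties by fold, and the 30000 strongest were kept. Cover of each GRCm38 gene span (RefSeq) and its 5 kb flanks was scaled so that all libraries had the same total. After adding 500 bp, log2 values of protein-coding genes whose mean reached 500 bp were tested with limma 3.58.1 (R 4.3.3; eBayes with trend) and Benjamini-Hochberg adjustment at 0.05. Regions, made by joining peaks that overlap by 1 bp, used 200 bp for both. The limma step was tested on simulated data. Clusters and paralogue groups had two-sided exact permutation tests (10 distinct groupings, smallest p 0.1), with other work in Python 3.11.15, pandas 2.3.3 and scipy 1.17.1. Values per library are unscaled unless stated, and overlap of genotypes at windows and regions was judged on scaled cover. Named genes were, by rule, members with assigned cover in all 6 libraries or without overlap between genotypes. Others, among them those at an unadjusted p under 0.05 and all genes named from the lists, were chosen after their values were seen. Alternatives were other list lengths and q thresholds, no scaling, other pseudocounts, minimums and windows, no trend, a replicate block, averaging wild-type 2 and 2b, and leaving out each library.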

Additional observations from a re-analysis of the deposited data

How the results depend on the processing

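No Hox gene passed the limma adjusted threshold in 20 of the 21 alternatives, the exception being Hoxc9 at a deposited q of 0.01 or less (−2.15 on the log2 scale, adjusted p = 0.0219). Among regions the exception was Hoxc9 with no minimum (−2.06, adjusted p = 0.0402). Over all gene loci 26 passed at a q of 0.01 or less, and over all regions 1 at a q of 0.05 or less, 3 at 0.01 or less and 62 with no minimum, against 0 in the main analysis. Hox genes at an unadjusted p under 0.05 numbered 2 to 12. The median of all genes moved from 0.07 to 0.16 without scaling.

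Cover of Hoxc was lower and that of Hoxd higher in Azin2-/- in all 18 alternatives, at −1.78 to −0.45 and 0.18 to 1.61. Hoxc was −1.78 at 5000 peaks and −0.49 with the replicate block, and Hoxd 1.61 at 5000 peaks and 0.18 with all. The small differences of the others turned sign: Hoxa at 5000 peaks (−0.0468), q of 0.05 (−0.13), q of 0.01 (−0.10) and all deposited peaks (−0.13), and Hoxb with all peaks (0.0646) and without scaling (0.0699). Leaving out 1 library gave −0.46 to 0.10 for the 4 clusters together, −0.11 to 0.26 for Hoxa and −0.46 to 0.22 for Hoxb. In percentage points it gave −3.21 to 2.53 for positions 1 to 3, −1.32 to 2.94 for 4 to 8 and −4.54 to 3.64 for 9 to 13. At 5000 peaks positions 4 to 8 gave 9.51 and positions 9 to 13 gave −11.9, against 0.475 and −0.637 in the main analysis. Positions 4 to 8 gave −2.24 at 15000 peaks, −1.90 at a q of 0.01, −4.03 with all peaks and −0.76 with wild-type 2 and 2b averaged, and positions 9 to 13 gave 2.14 at 15000 peaks and 0.0222 with all. Hoxa6 turned over the gene span only (−0.0411), and Hoxd12 at a q of 0.01 (−0.0425).

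Numbers 1 and 2 occur in both genotypes, but libraries of the same number did not deviate together (correlations across genes of −0.04 and 0.12), so the numbers were not taken as pairs. With the replicate block, 11 gene loci and 31 regions passed, none of them Hox, and the differences were 0.17 for the 4 clusters together and 0.24 for Hoxb.

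Depth limits these results: peaks of 2 to 6 fragments enter the lists, and read totals are unknown.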
